A study of Mus musculus with 48 samples.

Results

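Genes that make glucose, break it down and answer to insulin were followed in single livers and colons of mice whose dams and whose own diet differed in selenium (Se) and folate. The 9 genes were G6pc, Pck1, Fbp1 and Pcx of gluconeogenesis, Pklr of glycolysis, Igfbp1 and Irs2 of the insulin response, and the regulators Foxo1 and Ppargc1a. They were chosen by symbol, as every probe whose accession belonged to a member. Of the 9 genes, 7 had a probe on the array, with 9 probes among the 41174 probes and 18434 named genes measured. Foxo1 and Ppargc1a had 2 probes each, and the brighter of them stands for the gene. Pck1 and Irs2 had no matched probe and were not analysed here.

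The liver keeps blood glucose up between meals by making it from lactate, amino acids and glycerol. Pyruvate carboxylase (Pcx) opens the path from pyruvate, fructose-1,6-bisphosphatase (Fbp1) acts in its middle and the catalytic subunit of glucose-6-phosphatase (G6pc) frees glucose at its end. Liver pyruvate kinase (Pklr) runs the last step of glycolysis the other way, and its gene is known to be raised by glucose. FOXO1 is a transcription factor that insulin drives out of the nucleus, and with the coactivator PGC-1α (Ppargc1a) it raises G6pc in fasting. Igfbp1 codes for a secreted binding protein of insulin-like growth factors that insulin represses in the liver. Time since the last meal can set the level of these genes, so each mouse is shown.

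RNA of 24 livers and 24 colons of C57/BL6 offspring was hybridised on Agilent 2-colour arrays. The first letter of a group is the diet of the dam, from before mating through lactation. The second is that of the pup from weaning to 12 weeks. Per the study's methods, diet H was supplemented with Se and folate and diet L was marginally deficient in both. This gave HH, HL, LH and LL with 6 arrays each per tissue. All diets were high in fat, and per the study's methods the mice were males, fasted and re-fed before the tissues were taken. Each mouse (Cy3) was read against 1 reference RNA (Cy5), which the series describes as RNA of a whole pregnant mouse with its foetus and the methods as pooled intestinal and liver RNA. All values are log2 mouse over reference unless another scale is named. Such a ratio compares mice for 1 probe and says nothing of 1 gene against another. Labels gave neither dams nor litters, so mice of a group may share a dam, and the p-values measure the spread between the mice sampled.

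The arrays stood apart in several ways that touch these genes. A single HH animal was hybridised on 2 liver arrays, which were averaged, leaving 5 HH livers (23 livers in all). Each slide held 1 array of each diet group, with 6 slides for each tissue, and the liver slides were scanned on another day than the colon slides. Between 55.1% and 66% of spots on the liver arrays and between 66.8% and 73.7% on the colon arrays were well above background in Cy3, and all 9 probes were so on all 48 arrays with none saturated. Xist, expressed from the inactive X chromosome, was over 1.5 log2 units above the tissue median on 2 liver and 6 colon arrays, against the description of the mice as males. Among these arrays the Y-linked Eif2s3y was dim in liver HL replicate 2 (log2 Cy3 6.13). It was also dim in colon LL replicates 1 and 3 (7.21 and 6.02) and HL replicate 5 (6.06). Liver LL replicate 6 (10.63) and colon HH replicates 1 and 5 and LL replicate 5 (10.69, 10.09 and 11.16) kept its signal. The mean ratio of the 7 measured hepatocyte markers (of 9 listed) was 1.27 to 1.97 in livers and -3.59 to -3.04 in colons. The mean of the 10 colon epithelium markers was -4.3 to -3.61 in livers and 0.33 to 1.06 in colons. The mean of 7 pancreas markers (of 8 listed) was -2.29 to -1.7 in the other livers but 0.2 in HL replicate 1, which also had the lowest Pklr (1.17) and the highest Ppargc1a (-0.44) of the HL livers. The part of pancreatic tissue in its values was not tested.

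Where the start of a gene carries letters known from these hormonal responses, the RefSeq promoters are shown to place the genes in their pathway. For the 9 genes, 11 promoters of 250 bases before a start site were searched on both strands (GRCm38.p6). The searched letters were CAAAACA (the core of the FOXO and insulin response element), TGACGT (the cAMP response half-site), CACGTG (the E-box) and CACGGG followed by NNNNN and CCCGTG (the carbohydrate response element of Pklr). Capitals mark the match.
Igfbp1, chr11:7197537-7197786, plus strand: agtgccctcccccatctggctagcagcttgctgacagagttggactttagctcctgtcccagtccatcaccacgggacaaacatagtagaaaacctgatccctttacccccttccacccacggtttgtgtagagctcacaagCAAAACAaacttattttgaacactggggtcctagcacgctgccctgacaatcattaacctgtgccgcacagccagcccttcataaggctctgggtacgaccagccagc
G6pc, chr11:101367466-101367715, plus strand: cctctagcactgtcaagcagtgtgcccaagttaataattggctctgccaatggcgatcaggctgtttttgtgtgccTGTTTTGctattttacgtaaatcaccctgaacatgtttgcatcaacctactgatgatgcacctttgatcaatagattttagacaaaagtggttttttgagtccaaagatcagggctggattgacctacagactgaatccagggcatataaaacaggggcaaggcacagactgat
Ppargc1a, chr5:51567726-51567975, minus strand: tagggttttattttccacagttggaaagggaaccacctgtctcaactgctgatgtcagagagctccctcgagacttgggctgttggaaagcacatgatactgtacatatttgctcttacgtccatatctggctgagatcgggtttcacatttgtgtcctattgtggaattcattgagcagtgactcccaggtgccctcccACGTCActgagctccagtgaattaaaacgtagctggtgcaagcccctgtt
Pklr, second start, chr3:89136373-89136622, plus strand: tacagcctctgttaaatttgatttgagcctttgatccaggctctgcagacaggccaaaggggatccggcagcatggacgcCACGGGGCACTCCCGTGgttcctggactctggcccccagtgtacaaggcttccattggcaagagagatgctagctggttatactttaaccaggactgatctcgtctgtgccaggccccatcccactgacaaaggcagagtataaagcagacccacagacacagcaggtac

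CAAAACA lay 108 to 102 bases before the start of Igfbp1, and on the other strand 174 to 168 bases before that of G6pc. It was also found in the promoter of Irs2, giving 3 of 11 promoters, against 5.56% of the 32851 RefSeq promoters of this length. TGACGT was found on the other strand 50 to 45 bases before the start of Ppargc1a and 91 to 86 bases before that of Pck1, against 6.47% of all promoters. CACGTG was found in a promoter of Pcx and in that of Irs2, against 6.02%. The full carbohydrate response letters, which are known from Pklr itself, lay 170 to 154 bases before its second start (1 of all 32851 promoters, 0.00304%). That match was known beforehand and is shown for its place alone. All the searched letters were picked as known from these hormonal responses, so the counts set beside the shares are no test. A match of letters is a description and not a bound site.

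Tissue set these genes apart far more than diet did. With all diets together, G6pc, Fbp1, Pcx, Pklr and Igfbp1 were higher in liver and Ppargc1a was higher in colon, while Foxo1 was not called. With a call set at a false discovery rate (FDR) below 0.05 and a change past 1.5-fold, 30.3% of all probes were called between the tissues, 14.6% higher in liver and 15.7% higher in colon. The members' count of 5 higher and 1 lower is read against that background. Livers and colons did not overlap for any of the 6 genes called. The share of all probes without overlap is not given here, so this only describes these genes. In bulk tissue, fewer cells of a type and less RNA per cell cannot be told apart, and tissue cannot be told apart from scan day.

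Fbp1 ranged from 0.69 to 1.54 in the 23 livers and from -5.84 to -5.4 in the 24 colons. The difference of 6.88 log2 units (SE 0.08, 118-fold, adjusted p = 4.21e-47) was at percentile 99.8 of all probes, ordered from colon to liver. Igfbp1 ranged from 1.35 to 3.8 in livers and from -4.42 to -3.29 in colons, 6.63 log2 units apart (SE 0.17, 99.3-fold, adjusted p = 7.72e-34). The colon signal of Igfbp1 was dim, at a log2 Cy3 signal of 6.47 to 6.99 against 10.88 to 14.31 in the livers. G6pc was 0.7 to 1.86 in livers and -3.93 to -3.35 in colons, a difference of 4.98 (SE 0.1, 31.5-fold, adjusted p = 2.24e-38).

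Pcx, which serves fat and amino acid synthesis in many tissues beside glucose production in the liver, was 1.08 to 2.06 in livers and -2.38 to -0.43 in colons. Its difference was 3.26 (SE 0.15, 9.57-fold, adjusted p = 6.86e-24). Pklr was 0.64 to 2.74 in livers and -0.7 to 0.44 in colons, the narrowest gap of the genes higher in liver (2.06, SE 0.14, 4.16-fold, adjusted p = 1.17e-17). Ppargc1a, a coactivator that drives mitochondrial genes in many tissues, ran the other way, from -1.87 to -0.44 in livers and from 0.01 to 1.24 in colons. It was lower in liver by -1.83 (SE 0.12, 3.56-fold, adjusted p = 1.17e-18), and its second probe by -1.14 (2.21-fold).

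Foxo1 was 0.28 on average in livers and 0.25 in colons, and the tissues overlapped throughout (-0.27 to 0.77 and -0.09 to 0.84). The difference was 0.02 (SE 0.08, 95% interval -0.13 to 0.18, adjusted p = 0.81), and that of its second probe 0.14 (adjusted p = 0.0971). This depended on the scaling. With the arrays centred on their median in place of loess, Foxo1 was -0.55 lower in liver (adjusted p = 5.64e-06), while the other 6 genes kept their direction and their call.

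**Figure D1:**
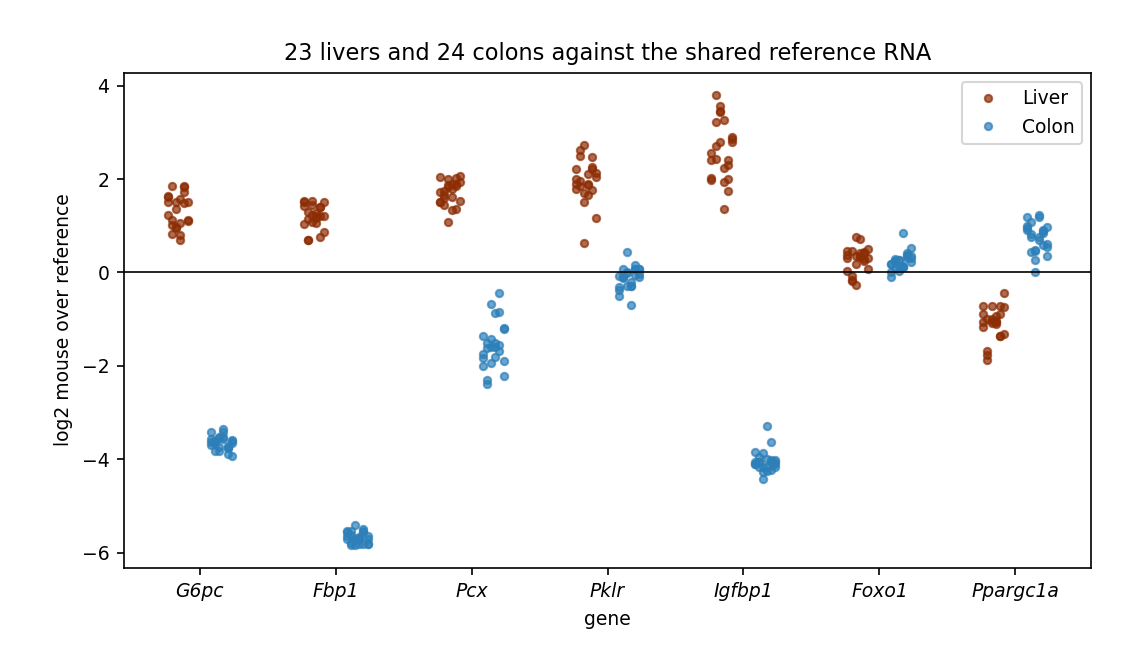
Log2 mouse over reference (vertical axis) of the 7 measured genes (horizontal axis), with 1 point for each of 23 livers (brown) and 24 colons (blue); the line at 0 is the level of the reference RNA. Livers lie above colons for G6pc, Fbp1, Pcx, Pklr and Igfbp1, below them for Ppargc1a, and among them for Foxo1.

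Between diets, none of the 7 genes was called in liver. The 6 pairwise comparisons ask what a low diet of the dam (HH vs LH, HL vs LL), of the pup (HH vs HL, LH vs LL), of both (HH vs LL) or a switch of diet at weaning (HL vs LH) changed. Of the 42 tests of the 7 genes in liver, 0 were called by limma at that threshold, where 0% of all probes were called in each comparison. At an unadjusted p under 0.05 there was 1 of 42. In that measure 12% of all 41171 probes passed in HH vs LH, 4.37% in HH vs HL, 3.45% in HH vs LL, 3.08% in HL vs LL, 6.38% in LH vs LL and 1.74% in HL vs LH. The differences ran from -0.35 to 0.72, and their 95% intervals reached from -1.04 to 1.45. In every comparison the diet groups overlapped for each gene.

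G6pc in the 5 HH livers was 0.7, 1.36, 1.63, 1.85 and 1.86. In HL livers it ran from 0.95 to 1.84 (median 1.12), in LH from 0.8 to 1.72 (1.24) and in LL from 1.01 to 1.58 (1.36). The HH group held both the lowest and the highest mouse of all. Group means lay between 1.22 ± 0.4 in LH (SD, n = 6) and 1.48 ± 0.48 in HH (SD, n = 5), and the pairwise differences between -0.26 and 0.11 were within the spread of the mice.

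Fbp1 had the narrowest full range of the 7 genes in liver, 0.69 to 1.54 over all mice. It was 0.75, 1.16, 1.29, 1.44 and 1.5 in HH livers. It ran from 0.69 to 1.54 (median 1.33) in HL, from 0.69 to 1.42 (1.22) in LH and from 1.04 to 1.53 (1.17) in LL. Means differed by 0.11 at most, and the 95% intervals of the differences, -0.43 to 0.38, leave out any change past 1.5-fold.

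Pcx in the HH livers was 1.08, 1.72, 1.74, 1.79 and 1.89, where the lowest value is the animal hybridised on 2 arrays (1.18 and 0.97). It ran from 1.52 to 1.93 (median 1.75) in HL, from 1.44 to 2.06 (1.96) in LH and from 1.34 to 2.01 (1.52) in LL. LH livers were mostly the highest and LL livers mostly the lowest, with overlap. LL was below LH by -0.34 (SE 0.13, 95% interval -0.61 to -0.06, unadjusted p = 0.0194, adjusted p = 0.768), which is not a call. Without the 2 livers with Xist it was -0.3 (unadjusted p = 0.047).

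The effect of the pup's diet on Pcx also differed with that of the dam by -0.43 (SE 0.19, unadjusted p = 0.037, adjusted p = 0.41), where 11.4% of all probes passed the same unadjusted threshold. Leaving out the HH animal of 2 arrays made that -0.29 (unadjusted p = 0.0995). For the main effects of diet, none of the 7 genes reached an unadjusted p of 0.05, against 4.16% of probes for the dam and 1.37% for the pup. No probe was called for the dam's diet, the pup's diet or their interaction.

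Pklr was 0.64, 1.65, 1.95, 2.01 and 2.22 in HH livers, the lowest again the animal of 2 arrays (0.7 and 0.57). It ran from 1.17 to 2.49 (median 1.94) in HL, from 1.51 to 2.47 (1.96) in LH and from 1.77 to 2.74 (2.01) in LL. The medians lay close together while the means ran from 1.69 ± 0.62 in HH (SD, n = 5) to 2.17 ± 0.41 in LL (SD, n = 6). The largest difference, LL over HH, was 0.48 (unadjusted p = 0.0749), and the groups overlapped. Without the HH animal of 2 arrays it was 0.22 (unadjusted p = 0.347).

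Igfbp1 had the largest diet difference of the 7 genes. HH livers were at 1.35, 1.74, 2.41, 2.7 and 2.79. It ran from 1.94 to 3.44 (median 2.67) in HL, from 2 to 3.8 (3.05) in LH and from 1.98 to 3.47 (2.42) in LL. LH exceeded HH by 0.72 (SE 0.35, 1.65-fold, 95% interval -0.01 to 1.45, unadjusted p = 0.0534, adjusted p = 0.426). The difference was 0.51 to 0.9 when each mouse was left out in turn, and in 7 of 23 cases its unadjusted p fell under 0.05. The LH livers at 2.85, 3.26, 3.57 and 3.8 lay above all HH livers, and the others at 2 and 2.02 lay among them. HH livers also had lower hepatocyte markers (mean ratio 1.3 to 1.61) than LH livers (1.6 to 1.97), and their part in this difference was not tested.

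Foxo1 was -0.27, 0.03, 0.28, 0.35 and 0.46 in HH livers. It ran from -0.19 to 0.51 (median 0.4) in HL, from -0.07 to 0.77 (0.45) in LH and from -0.17 to 0.35 (0.31) in LL. The lowest liver of every group was hybridised on the third slide, and no other liver was below 0. The HH animal among them was also on the sixth slide and was at -0.3 there against -0.24 on the third. Foxo1's second probe was higher in LH than in HH by 0.26 (unadjusted p = 0.0429, adjusted p = 0.402), where the first gave 0.23 (unadjusted p = 0.158). Without the HH animal of 2 arrays these were 0.16 (unadjusted p = 0.177) and 0.12 (unadjusted p = 0.453). The effect of the pup's diet differed with that of the dam by -0.39 on the second probe (SE 0.17, unadjusted p = 0.0284, adjusted p = 0.383) and by -0.29 on the first (unadjusted p = 0.203). Without that animal they were -0.29 (unadjusted p = 0.0741) and -0.18 (unadjusted p = 0.414).

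Ppargc1a was -1.06, -1.05, -1.04, -1 and -0.72 in HH livers. It ran from -1.76 to -0.44 (median -1.1) in HL, from -1.69 to -0.71 (-1.24) in LH and from -1.87 to -0.74 (-0.95) in LL. The lowest HL, LH and LL livers were those of the third slide. Pairwise differences ran from -0.22 to 0.13. The second probe was lower in LL than in HL by -0.26 (unadjusted p = 0.0251), which the first did not show (0.01), and its dam diet effect was -0.17 (unadjusted p = 0.0378).

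**Figure D2:**
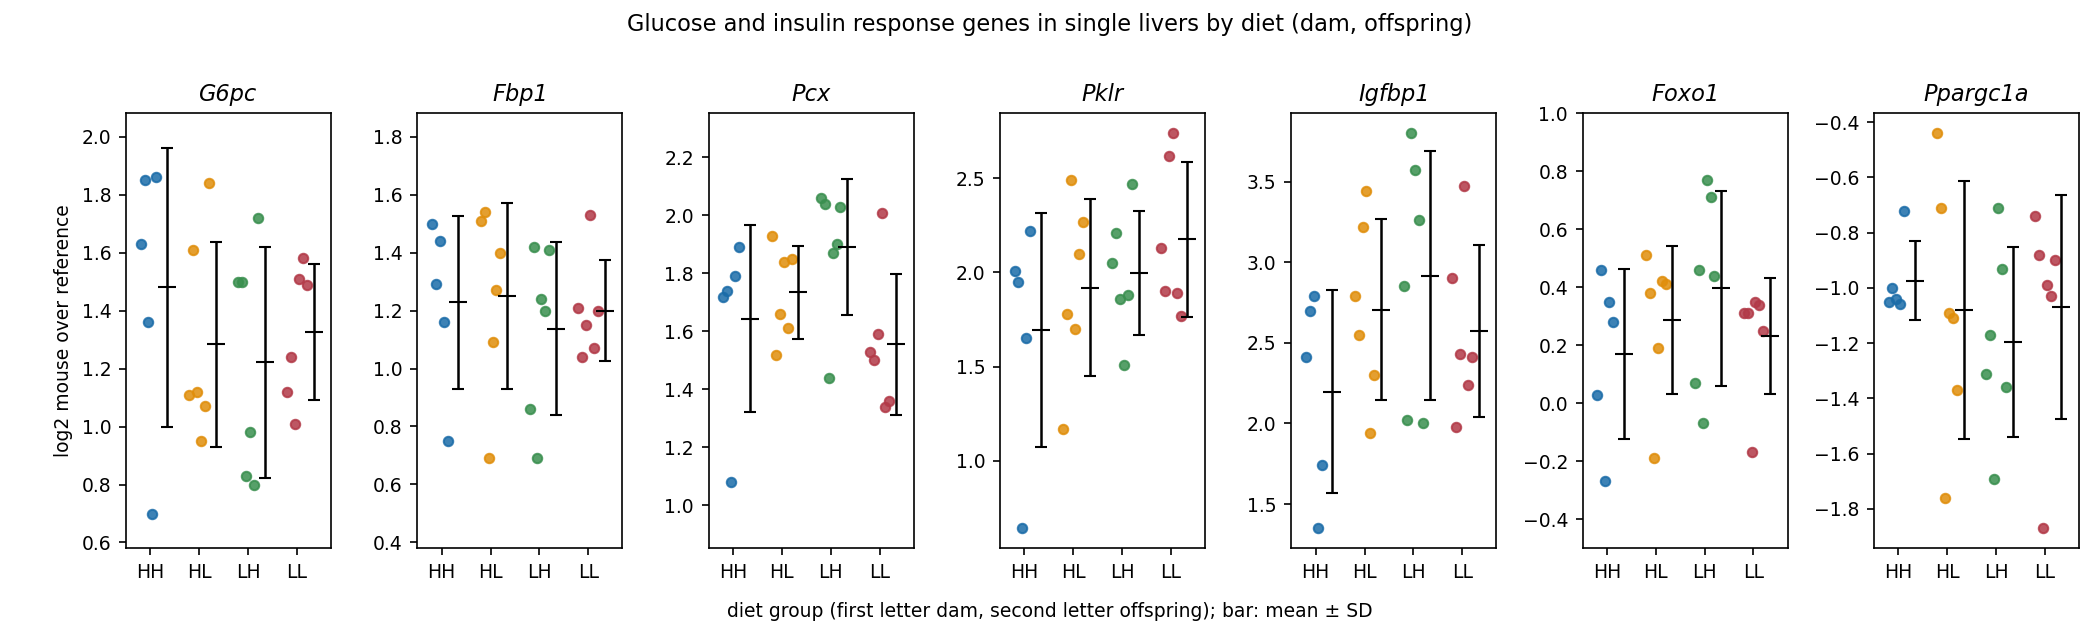
Log2 mouse over reference of 7 genes in single livers (1 point a mouse) by diet group, with black bars for the mean ± SD (HH 5 mice, others 6); the vertical axes span different values, each at least 1.5 units. The 4 groups overlap for every gene, and the lowest HH point of Pcx, Pklr and Foxo1 is the same animal.

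Arrays were also compared within their slide, and no member was called. The planned fit with slide as a block counted the 2 arrays of the HH animal as 2 mice, which moved the differences on its own, so each is given without the block as well. LH exceeded HH in Foxo1 by 0.3 with the block (SE 0.11, unadjusted p = 0.00972, adjusted p = 0.14) and by 0.3 without it (SE 0.16, unadjusted p = 0.0622). Its second probe gave 0.32 in both (unadjusted p = 0.00234, adjusted p = 0.0846 with the block, and unadjusted p = 0.0142 without it). Pcx gave 0.34 in both (unadjusted p = 0.0202 and 0.0281), Igfbp1 0.62 in both (unadjusted p = 0.0625 and 0.0772), and Pklr, LL over HH, 0.66 in both (unadjusted p = 0.037 and 0.0216). With the block the interaction was -0.36 for Foxo1 (unadjusted p = 0.0265), -0.45 for its second probe (unadjusted p = 0.00243, adjusted p = 0.114) and -0.52 for Pcx (unadjusted p = 0.0127).

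With the block and only the third-slide array of that animal, a fit chosen after seeing the data, Foxo1 was 0.21 higher in LH (SE 0.1, unadjusted p = 0.0419, adjusted p = 0.329) and with only its sixth-slide array 0.33 (unadjusted p = 0.0104, adjusted p = 0.194). With the animal left out it was 0.22 (unadjusted p = 0.0587). Pcx gave 0.22, 0.3 and 0.14 (unadjusted p = 0.0856, 0.0512 and 0.277), Igfbp1 0.81, 0.64 and 0.89 (unadjusted p = 0.019, 0.076 and 0.0198), and Pklr, LL over HH, 0.44, 0.44 and 0.11 (unadjusted p = 0.137, 0.137 and 0.644). On the 4 slides with other HH mice, LH minus HH ran from 0 to 0.44 for Foxo1 and from 0 to 0.34 for Pcx, and on the slides of that animal it was 0.17 and 0.74 for Foxo1 and 0.26 and 1.06 for Pcx. With both arrays counted, 28 probes were called in HH vs LH with the block and 6 without it, against 0 with the animal averaged and 0 with the block and 1 of its arrays. None of the 28 belonged to the 7 genes.

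**Figure D3:**
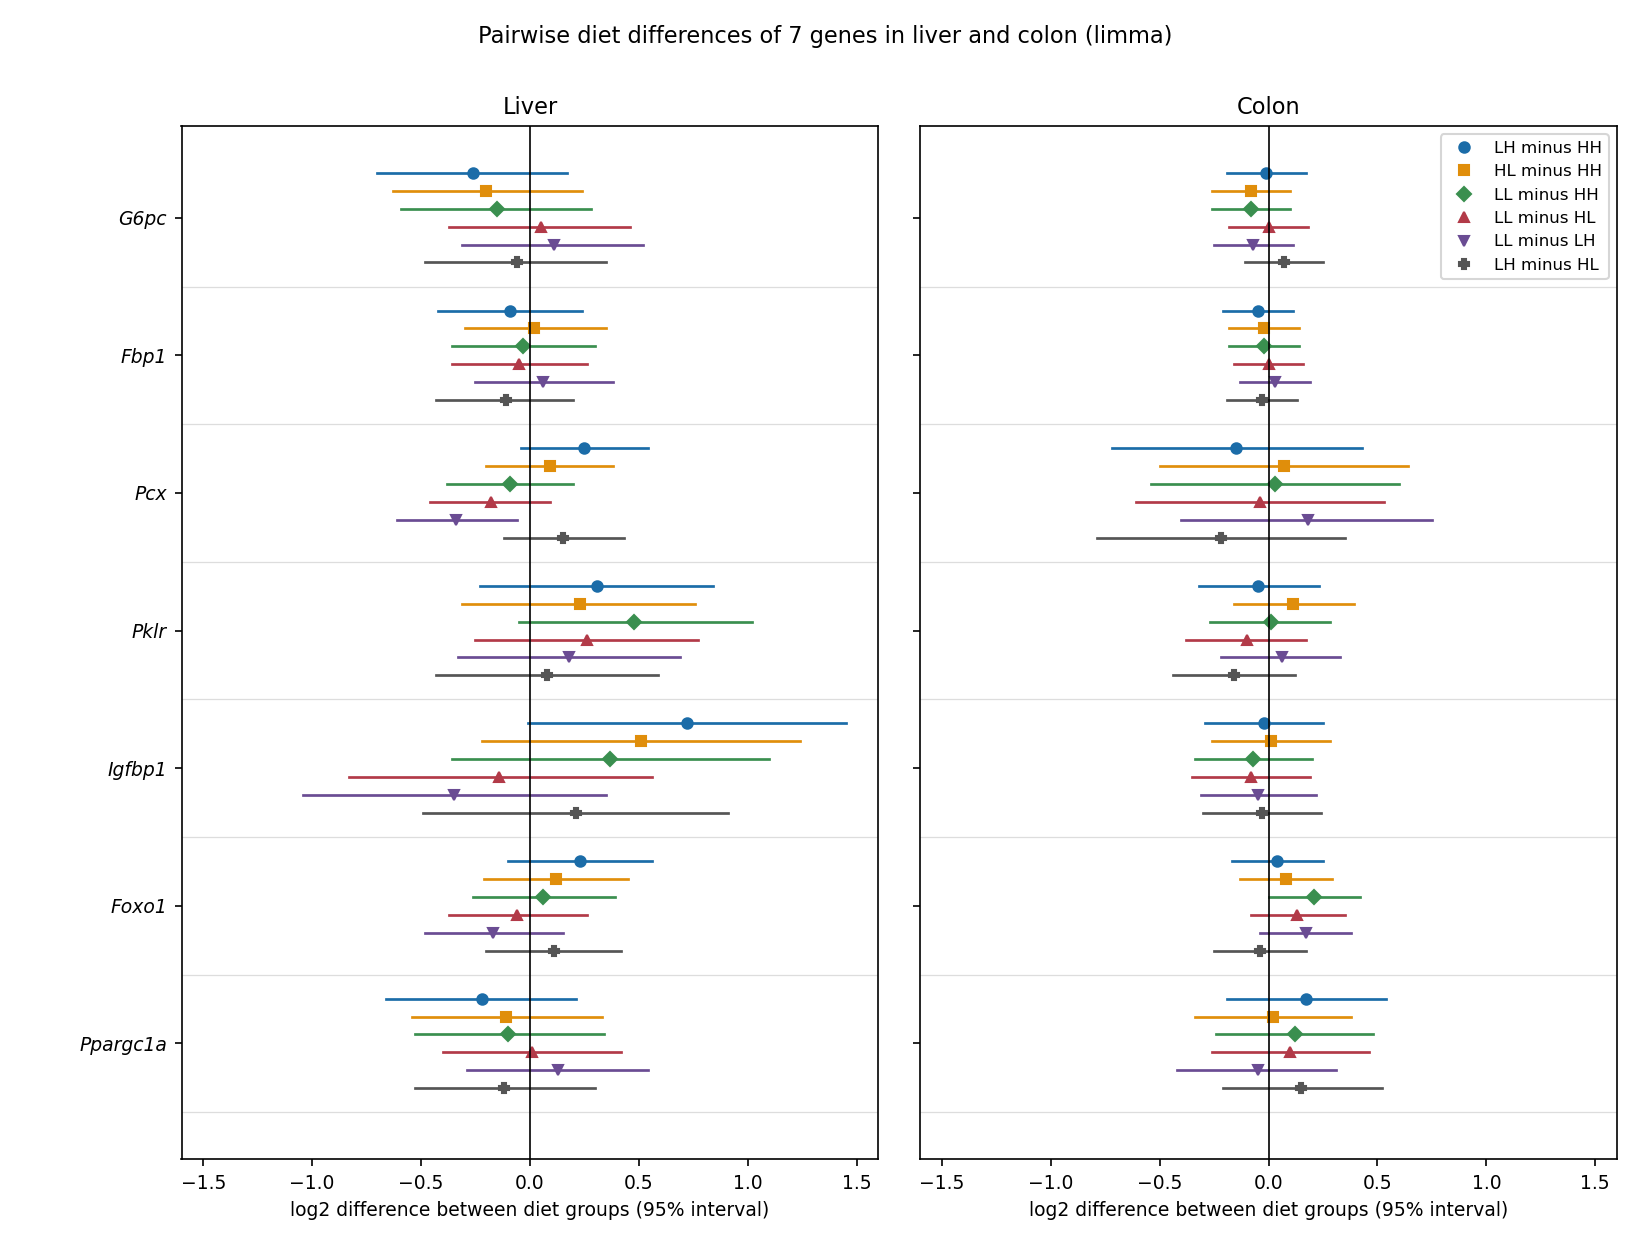
Log2 difference between diet groups (horizontal axis, point) with its 95% interval (line) for 7 genes and 6 pairwise comparisons in liver and colon, from limma. In liver the points lie between -0.35 and 0.72 and in colon between -0.22 and 0.21.

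In the colon, where G6pc, Fbp1 and Igfbp1 lay far below the reference, no gene was called between diets either. Of 42 pairwise tests 0 were called and 1 had an unadjusted p under 0.05, with differences from -0.22 to 0.21 and 95% intervals from -0.79 to 0.75. Of all 41173 probes 0% were called in each comparison, and 3.24% passed the unadjusted threshold in HH vs LH, 1.46% in HH vs HL, 1.72% in HH vs LL, 1.02% in HL vs LL, 2.81% in LH vs LL and 2.95% in HL vs LH. For the dam's diet, the pup's diet and their interaction 2.11%, 2.03% and 1.79% of probes passed, and none of the 7 genes.

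Diet means of G6pc, Fbp1 and Igfbp1 were close together in the colon. Group means of G6pc lay between -3.68 and -3.6, of Fbp1 between -5.7 and -5.65 and of Igfbp1 between -4.1 and -4.02. Pklr means lay between -0.17 and -0.01 and Ppargc1a means between 0.67 and 0.85. No comparison of these 5 genes had an unadjusted p under 0.05 on the representative probe.

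Foxo1 was 0.01 to 0.42 (median 0.11) in HH colons, 0.13 to 0.36 (0.25) in HL, -0.09 to 0.52 (0.19) in LH and 0.19 to 0.84 (0.32) in LL. LL exceeded HH by 0.21 (SE 0.1, unadjusted p = 0.047, adjusted p = 1). The difference was 0.12 to 0.27 when each colon was left out in turn, and in 9 of 24 cases its unadjusted p was under 0.05. Without LL replicate 4, the highest colon of all, it was 0.12 (unadjusted p = 0.185). Without the arrays with Xist it was 0.34 (unadjusted p = 0.02), but that fit left out LL replicates 1, 3 and 5 and kept replicate 4. It also left out HL replicate 5 and HH replicates 1 and 5, of which HH replicate 5 was the highest HH colon (0.42). LL replicate 4 also had the highest mean ratio of leukocyte markers (1.67, others 0.02 to 0.4) and of the Kupffer macrophage list (0.58, others -1.99 to -1.59). Of the Kupffer list, only Marco and Cd5l ranged widely in the colons, up to log2 Cy3 signals of 15.07 and 11.84. Clec4f, Vsig4 and C1qa stayed at 6.43 to 6.98, 6.4 to 6.78 and 10.43 to 11.24, so the list mean does not name a cell type there. The part of these markers in its Foxo1 value was not tested.

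The second probe of Ppargc1a was higher in LH colons (mean 0.69) than in HH, HL and LL colons (0.33, 0.33 and 0.34). The differences were 0.36, 0.36 and -0.35 (LL minus LH), with unadjusted p of 0.0303, 0.03 and 0.0364 and an adjusted p of 1 for each. With slide as a block they had the same size (0.36, 0.36 and -0.35), with unadjusted p of 5.89e-05, 5.75e-05 and 9.12e-05 and adjusted p of 0.261, 0.434 and 0.459. The brighter probe of Ppargc1a gave 0.17, 0.15 and -0.05 for these comparisons, of the same sign and none past the unadjusted threshold. The difference between the probes was not tested.

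**Figure D4:**
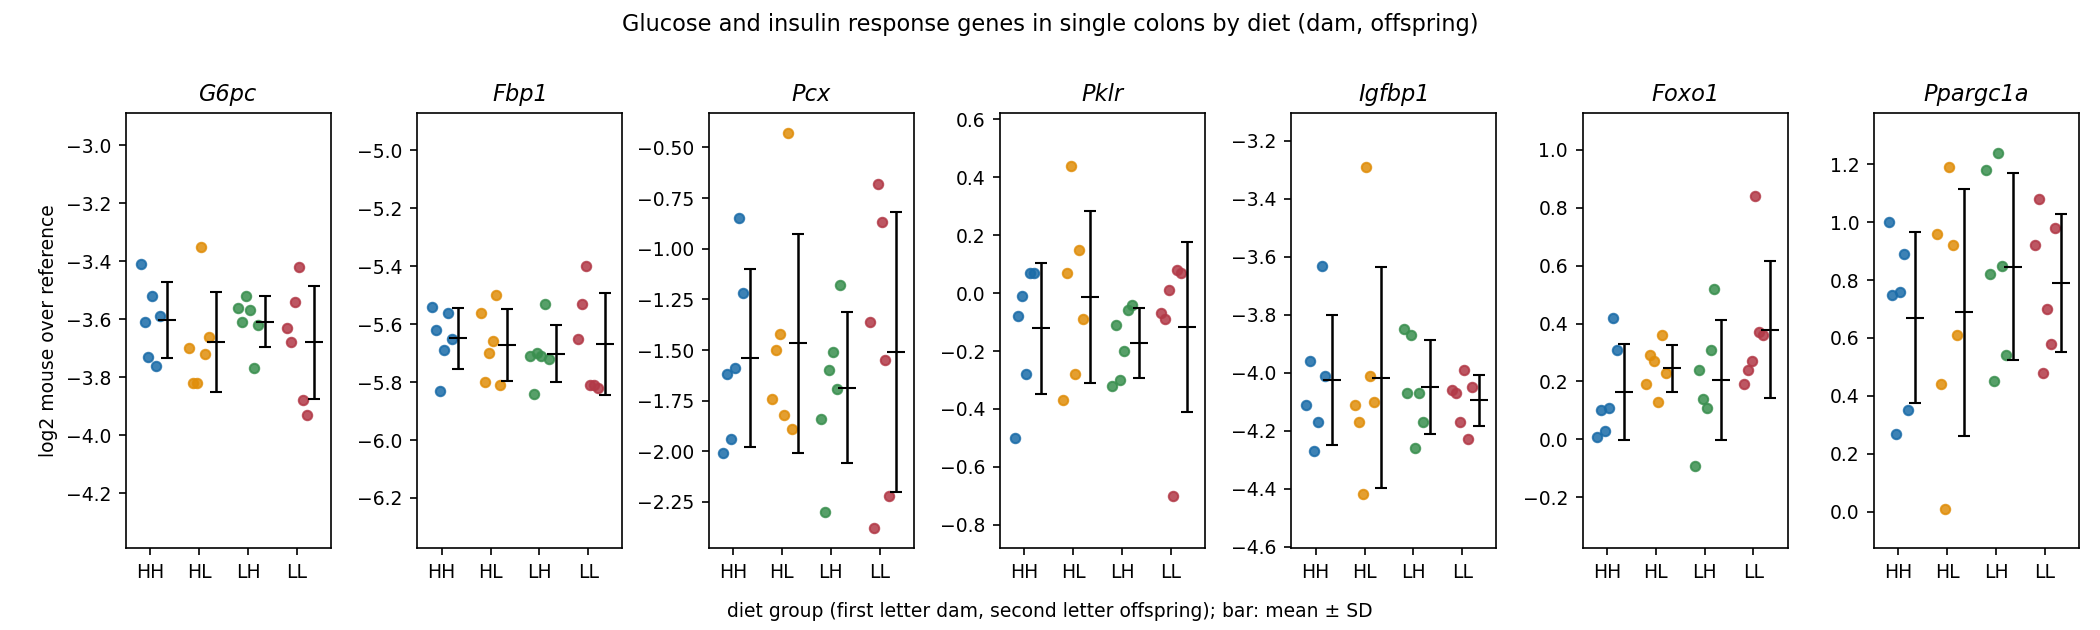
Log2 mouse over reference of 7 genes in single colons (1 point a mouse, 6 a group) by diet group, with black bars for the mean ± SD; the vertical axes span different values, each at least 1.5 units. The groups overlap for every gene, Pcx spreads most and Fbp1 least.

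Whether diet acted differently in liver and colon was tested directly, and 0 of the 14 tests of the 7 genes (dam's diet and pup's diet) were called by limma, as was 0% of all probes. The largest of these differences was Igfbp1 for the dam's diet, 0.36 (SE 0.24, 95% interval -0.12 to 0.85). On its second probe Ppargc1a gave -0.36 for the dam's diet (unadjusted p = 0.00343, adjusted p = 0.857).

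Single mice spread widely. Across the 23 livers Igfbp1 spanned 5.46-fold, Pklr 4.29-fold, Ppargc1a 2.69-fold, G6pc 2.23-fold, Foxo1 2.06-fold, Pcx 1.97-fold and Fbp1 1.8-fold. The SD within groups put Igfbp1 (0.63) at percentile 98.6 of the 20502 probes well above background on all liver arrays, Pklr (0.46) at 94.3, G6pc at 87.5 and Ppargc1a at 87.3. Foxo1, Fbp1 and Pcx were at 69.1, 69.7 and 57.6. In the colons the order was different. Pcx spanned 3.86-fold, with an SD within groups at percentile 98.7 of 25521 probes, while G6pc and Fbp1 were at 27.4 and 15.8.

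Whether the genes moved together in single livers was asked with deviations from the diet group means, over 21 pairs. A single pair passed an adjusted p of 0.05. Foxo1 and Ppargc1a had r = 0.73 (permutation p = 9e-05, adjusted p = 0.00189) and rho = 0.59 (permutation p = 0.00333, adjusted p = 0.0699), and r = 0.72 without the 2 livers farthest from the median of Foxo1. Both genes were low on the third slide, where the 4 arrays averaged -0.17 for Foxo1 (0.2 to 0.44 on the other slides) and -1.59 for Ppargc1a (-1.17 to -0.88). With slide means removed r was 0.5, and without the livers of that slide 0.48 (permutation p = 0.0368, adjusted p = 0.258, n = 19). Neither passed the adjusted threshold, and leaving out a slide also leaves fewer livers. The part of that slide in the relation was not tested. With slide means removed 2 other pairs passed instead, Pcx with Pklr and Pklr with Ppargc1a, while Foxo1 with Ppargc1a did not (adjusted permutation p = 0.0976).

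Pcx and Pklr had r = 0.57 (permutation p = 0.00511, adjusted p = 0.0537), rho = 0.48 (adjusted p = 0.147) and r = 0.36 without the 2 livers farthest from the median of Pcx, and r = 0.76 with slide means removed (permutation adjusted p = 0.00042). Pklr and Ppargc1a ran opposite, with r = -0.49 (permutation p = 0.0179, adjusted p = 0.125), rho = -0.49 and r = -0.74 with slide means removed (permutation adjusted p = 0.000735). G6pc and Igfbp1, both repressed by insulin in the liver, did not pass (r = -0.25, permutation p = 0.244, adjusted p = 0.518), and the sign turned with slide means removed (r = 0.26). The HH mouse with the highest G6pc of all (1.86) had an Igfbp1 of 1.74, and the LH mouse with the highest Igfbp1 (3.8) had a G6pc of 0.83.

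Pklr followed the leukocyte markers of the liver in the opposite direction (r = -0.8, permutation p = 1e-05, the smallest that 100000 permutations can give, adjusted p = 0.00063 over 63 pairs of gene and marker list; rho = -0.82, adjusted p = 0.00126). Without the 2 farthest livers r was -0.77, and with slide means removed -0.84. The mean ratio of the 6 leukocyte markers ran only from -0.09 to 0.44 in the livers, and the highest was the HH animal of 2 arrays, which also had the highest Kupffer macrophage markers (3.16, others 1.54 to 2.79) and the lowest Pklr, Pcx and Foxo1. Both of its arrays gave like values, with Igfbp1 at 2.82 and 2.76, G6pc at 1.31 and 1.41 and Fbp1 at 1.44 and 1.44. The part of these cells in its low values was not tested. No other member and marker list passed in liver.

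Of 14 relations between a member and a measure of the array, Fbp1 followed the share of probes well above background (r = 0.72, permutation adjusted p = 0.00224; rho = 0.75, adjusted p = 0.00154). Pklr followed the SD of the array's log ratios (r = 0.56, adjusted p = 0.0411; rho = 0.61, adjusted p = 0.0167, by permutation). Their part in the differences between mice was not tested.

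The genes whose deviations were most like those of Pklr across the 23 livers, of 12248 genes well above background in all, were Me1 (r = 0.84), Shpk (0.81) and Gpam (0.81). Me1 codes for malic enzyme, which supplies NADPH for fat synthesis, and Gpam for the enzyme that starts triglyceride synthesis. The HH mouse of 2 arrays was lowest in Pklr and in Me1 (-1.78), and the LH mouse of the fourth slide was next lowest in Me1 (-1.62). That LH liver also had adipocyte markers at 1.71, against -1.24 to -0.5 in the others. Without that HH mouse r was 0.77 for Me1 and 0.84 for Gpam. For Pcx the most like were Slc2a2 (0.83), the glucose transporter GLUT2 of the hepatocyte, Hlf (0.74) and Fam47e (0.74), and without the HH mouse Slc2a2 gave 0.75.

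For G6pc they were Scyl2 (0.83), Fam122a (0.81) and Kpna2 (0.78), for Igfbp1 Nipa2 (0.78), Gtf2b (0.7) and Fbh1 (0.7), and for Fbp1 Tpm3 (0.86), Clic4 (0.83) and Olfr456 (0.82). For Foxo1 they were Tnks1bp1 (0.94), Cmip (0.92) and Hyal1 (0.9), and for Ppargc1a Cald1 (0.91), Sfxn2 (0.91) and Tgs1 (0.9). The HL, LH and LL livers of the third slide were low in Tnks1bp1 (-0.74 to -0.31) and Cald1 (-0.04 to 0.23) as well. So was LH replicate 1 of the first slide, at -0.58 in Tnks1bp1 and 0.58 in Cald1. Each is the best of 12248 and shares arrays, slides and reference with its member, so these are descriptions with no test.

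In the colons 3 of 21 pairs passed by r and 1 by rho. G6pc and Pklr ran opposite (r = -0.73, permutation p = 0.00012, adjusted p = 0.00252; rho = -0.73, adjusted p = 0.00336; r = -0.72 without the 2 colons farthest from the median of G6pc). With slide means removed r was -0.52. It depended on the scaling, at -0.53 with the Cy3 channel alone and -0.05 with median centring. Foxo1 and Pcx had r = 0.53 and Igfbp1 and Ppargc1a r = 0.52, each just under the threshold with an adjusted permutation p of 0.04998, and r was 0.5 and 0.38 without the 2 farthest colons. Neither passed by rho (0.47, adjusted p = 0.178, and 0.35, adjusted p = 0.246), nor with Aquantile scaling (adjusted p = 0.052 for each), and with Cy3 alone the sign of Igfbp1 and Ppargc1a turned (-0.12). Without the 6 colons with Xist 3 pairs passed, Foxo1 and Pcx at 0.76, G6pc and Igfbp1 at 0.66 and G6pc and Pklr at -0.76.

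The wide spread of Pcx in the colon ran with the adipocyte markers (Adipoq, Plin1, Cidea, Lep and Retn), whose mean ratio spanned -0.56 to 2.34. Pearson's r was 0.78 (permutation p = 2e-05, adjusted p = 0.00126) and rho 0.9 (permutation p = 1e-05, adjusted p = 0.00063), with r = 0.79 without the 2 farthest colons and 0.82 with slide means removed. The 3 colons with the lowest adipocyte markers (-0.56, -0.55 and 0.23) had a Pcx of -2.22, -2.3 and -2.38, the lowest of the 24. Pcx followed the hepatocyte list as well (r = 0.71, adjusted permutation p = 0.00189, and rho = 0.7, adjusted p = 0.00724). Of that list Cyp2e1 ranged most widely in the colons, at log2 Cy3 signals of 10.5 to 14.23. Alb, Apoa1 and Fgb stayed at 13.97 to 14.74, 10.02 to 10.59 and 11.35 to 11.9, so the list mean does not name a cell type there. How far fat attached to the colon set its Pcx was not tested.

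Pklr in the colon followed the colon epithelium markers (r = 0.77, adjusted permutation p = 0.00126; rho = 0.68, adjusted p = 0.00987), with r = 0.66 without the 2 farthest colons. Foxo1 followed the leukocyte markers (r = 0.65, adjusted permutation p = 0.0296) by Pearson's r but not by rho (0.39, adjusted p = 0.267), and r was 0.41 without the 2 farthest. LL replicate 4, with the highest leukocyte and the lowest epithelium markers (0.33), had the lowest Pklr (-0.7) and the highest Foxo1 (0.84). In all, 11 of 63 pairs of member and marker list passed in the colon by r and 3 by rho, and 1 by each in the liver.

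**Figure D5:**
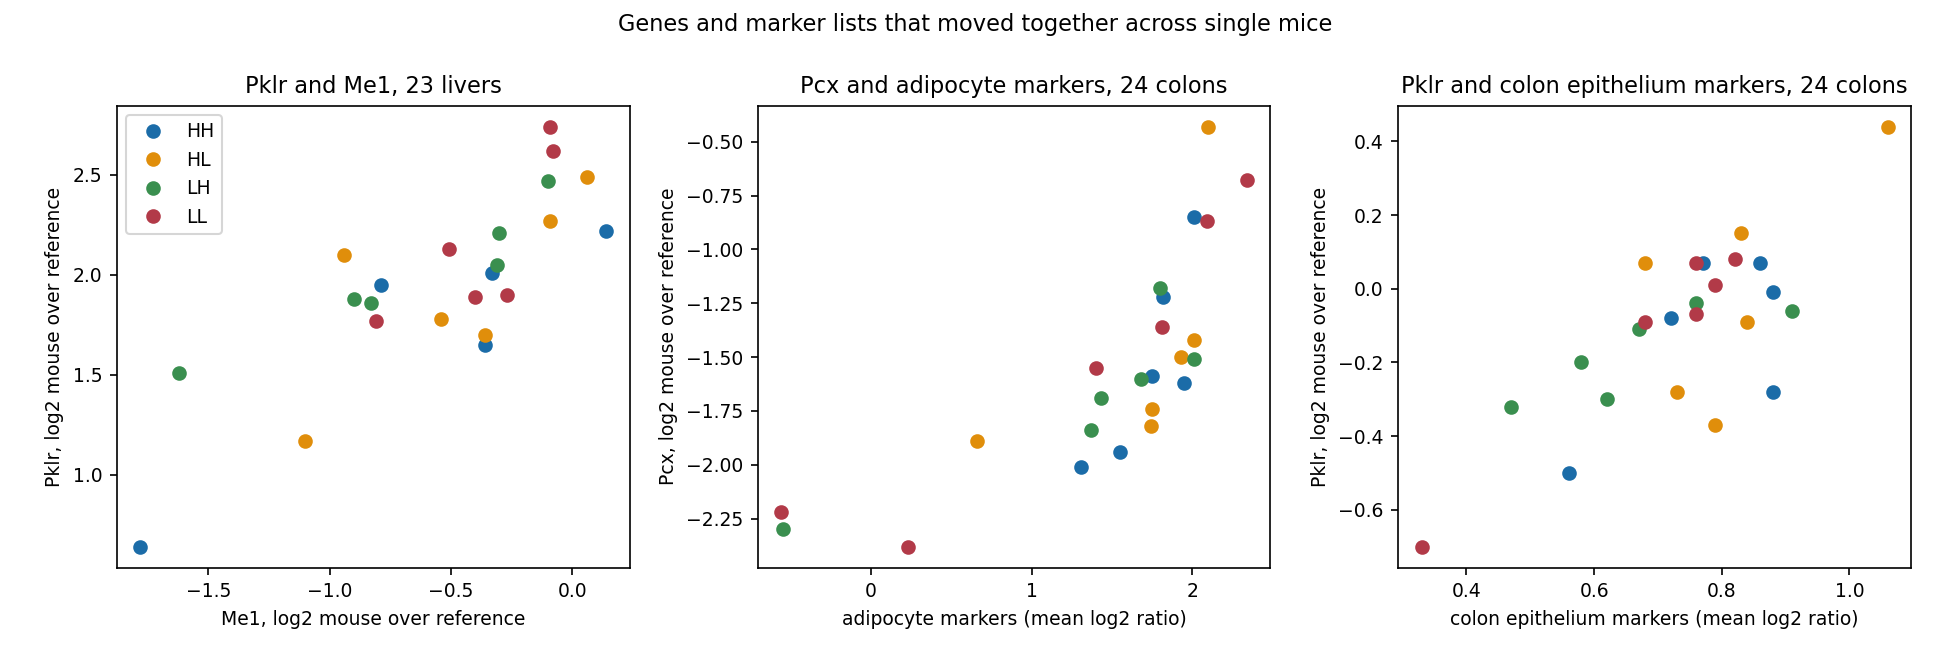
Left, Pklr against Me1 in 23 livers; middle, Pcx against the mean of 5 adipocyte markers in 24 colons; right, Pklr against the mean of 10 colon epithelium markers in 24 colons; both axes are log2 mouse over reference and each point is a mouse in the colour of its diet group. In each panel the pair rises together, and a few mice lie far from the rest.

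The other genes of these pathways were read from 7 lists, of which none had a call in any diet comparison in either tissue, by limma at the same threshold. Counted with 1 probe a gene, 13.8% of 18433 genes had an unadjusted p under 0.05 in liver for HH vs LH, 4.95% for HH vs HL, 4.04% for HH vs LL, 2.95% for HL vs LL, 5.82% for LH vs LL and 1.74% for HL vs LH. The counts of 6 lists for HH vs LH follow, with the median difference of the list beside -0.02 for all genes.

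Of 17 genes of gluconeogenesis and glucose release, 2 passed the unadjusted threshold with higher and 0 with lower values in LH (median 0.06). They were the glycerol channel Aqp9, 0.45 (SE 0.13, unadjusted p = 0.00236, adjusted p = 0.236), and the alanine transaminase Gpt2, 0.37 (unadjusted p = 0.0483). Of 33 glycolysis genes tested 1 was higher and 2 lower (median -0.06), the higher being Pfkfb1 at 0.24 and the lower ones Pgam1 at -0.28 and the muscle-type pyruvate kinase Pkm at -0.17. Of 30 insulin signalling genes 2 were higher and 0 lower (median -0.02), the insulin receptor Insr at 0.43 (unadjusted p = 0.0167) and Igfbp4 at 0.59 (unadjusted p = 0.0204). These shares, 11.8%, 9.09% and 6.67%, were below the 13.8% of all genes.

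Of 17 glycogen genes 3 were higher and 2 lower, a share of 29.4% (median 0.05). Pgm1, which turns glucose-1-phosphate and glucose-6-phosphate into each other, was 0.49 higher (SE 0.12, unadjusted p = 0.000451, adjusted p = 0.191), and Ppp1r3c, a glycogen-targeting subunit of protein phosphatase 1, was -0.88 (unadjusted p = 0.0162). Of 23 hormonal regulators tested 3 were higher and 3 lower, 26.1% (median 0.03), among them the cAMP-responsive factor Crem at -0.5 (unadjusted p = 0.0036). Klf15, a factor of amino acid use in fasting, was 0.54 higher in HL than in HH (SE 0.12, unadjusted p = 0.000111, adjusted p = 0.952).

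Of 16 genes known to rise in liver with fasting, 4 were higher and 1 lower in LH than in HH, 31.2% against 13.8% of all genes, and the median of the list was 0.26. Vnn1, a target of PPARα, was 0.84 higher (SE 0.27, unadjusted p = 0.00496, adjusted p = 0.254). In HH vs HL 4 were higher and 2 lower (37.5% against 4.95% of all genes), where Lpin2 was 0.74 higher and Cidec, a lipid droplet protein, -1.26 (unadjusted p = 0.0299 for each). In HH vs LL, HL vs LL, LH vs LL and HL vs LH 0 of the 16 passed. The lists were chosen with earlier results of these data known, so these shares are no independent evidence. No list was tested as a set.

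In the colon the smallest p-values among the list genes belonged to Aldoc, a brain-type aldolase of glycolysis, 0.31 higher in LH than in HH (unadjusted p = 0.00815), and Pgam1, -0.19 (unadjusted p = 0.0182). Sesn1 was 0.21 higher in LH than in HL (unadjusted p = 0.0283) and Klf15 0.37 higher in LL than in HH (unadjusted p = 0.0401). The adjusted p was 1 for each.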

How the data were processed

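RNA of 24 livers and 24 colons (Cy3) was hybridised with reference RNA (Cy5) on Agilent mouse arrays. The authors deposited the scanner output of each array, made with Feature Extraction 10.10.1.1 per the file headers, as intensity values of both channels with a local background, and a table of log2 ratios, which matched loess ratios of reference over mouse without background correction. The submitters' processing notes name limma and R 3.0.2. The background step is not given in the sources used here.

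From the median intensity of each spot, a local background brighter than its spot was set to the array's median background, followed by normexp correction (offset 50) and loess within the array (limma 3.58.1, R 4.3.3). Mouse over reference was taken on the log2 scale. Control and outlier spots were left out, leaving 41174 probes, named through RefSeq accessions (27050 with a gene, 14124 without). Diet groups came from the sample labels. Both arrays of the HH animal were averaged. Each tissue was fitted with its 4 groups (lmFit, eBayes) with calls at FDR below 0.05 (Benjamini-Hochberg over all probes) and a change past 1.5-fold. For the tissues, 1 fit held all 8 groups, slide being a random block (correlation 0.206). Correlations used deviations from group means and 100000 two-sided permutations. The number of arrays limits the precision, and no read depth applies.

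Named were all members, their diet differences with an unadjusted p under 0.05 and the 3 genes most like each member. From the pathway lists, a part of the genes with an unadjusted p under 0.05 by limma was named. Others that passed, such as Gyg and Hnf4a in liver and Foxo3 and Irs1 in colon, were left out above. Of 154 genes on the 7 pathway lists, 150 had a probe. The counts of the list of genes raised by feeding are not reported here. The members and lists were chosen with earlier results of these data known. Slide and diet were crossed per the labels. Arrays of a slide deviated together in 36 of 36 colon pairs (r over 0.1, median 0.48) and 21 of 36 liver pairs (median 0.2). On simulated data of these groups, limma called 94% of 2-fold and 49.3% of 1.5-fold changes in liver HH vs LH (40834 probes), and 95.5% and 35.8% in colon (40579 probes). The simulated noise was independent between arrays, with no slide effect, and the changed probes were drawn at random. These rates were not estimated for the members, and do not hold for genes of wide spread such as Igfbp1 and Pklr in liver. Alternatives covered background correction, normalization, a filter on dim probes, slide, array position, the HH animal, arrays with Xist, weights and each mouse left out.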

Additional observations from a re-analysis of the deposited data

Results flagged for a closer look

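Among 56 sets of 5 or 6 mice (7 genes, 4 diets, 2 tissues), 12 held a mouse whose gap to its nearest neighbour was large against the range of its group. For independent, normally distributed values about 1 in 20 sets would pass. These sets share mice and slides, and the share over all probes is not given here, so no excess is read from the 12.

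In liver these were Fbp1 in LL replicate 4 (1.53), Foxo1 in LL replicate 3 (-0.17), Ppargc1a in LL replicate 3 (-1.87) and in HH replicate 5 (-0.72), and Pcx in HH replicate 3 (1.08), LH replicate 3 (1.44) and LL replicate 4 (2.01). LL replicate 3 and LH replicate 3 lay on the third slide, and HH replicate 3 is the animal of 2 arrays.

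In colon they were Foxo1 (0.84) and Pklr (-0.7) in LL replicate 4, the colon with the high leukocyte markers, G6pc (-3.35) and Igfbp1 (-3.29) in HL replicate 4, and Pcx in HL replicate 5 (-0.43), a colon with high Xist. All values are log2 mouse over reference. Of the 14 tests of a diet effect differing between the tissues, none passed.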

How the results depend on the processing

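None of the 7 genes was called between diets under any of 44 settings in liver or 40 in colon (lowest adjusted p = 0.0846 and 0.261). The count of probes called in liver HH vs LH, 0 as reported, was 28 with slide as a block, which also counted both arrays of the HH animal as mice, 6 with both arrays as mice and no block, 0 with the block and 1 of its arrays (chosen after seeing the data), 1 with array position, 17 with the groups compared alone, 2 with arrayWeights, 106 with all 8 groups in 1 fit, and 0 to 2 when each mouse was left out. For the interaction in liver it was 3 with slide as a block (4 with the third-slide array of the HH animal alone and 0 with the sixth-slide array alone), 502 with arrayWeights and 52 with all 8 groups. Slide as a block changed no other count, and all colon counts stayed at 0.

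Between tissues, 12493 calls became 20245 with the processed signals of Feature Extraction and 24151 with median centring, which turned Foxo1 to -0.55. The processed signals gave 1 call for the dam's diet differing between tissues. Cy3 alone scaled within each tissue was not run for that comparison, and a quantile over all 48 arrays, added after seeing the data, took its place.

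The pairs of genes that passed in liver (1) were 2 with a normexp offset of 16, the processed signals, Aquantile or slide means removed, 3 with median centring and 0 without the livers of the third slide, also added after seeing the data. In colon (3) they were 5 with the background as deposited, 1 with no background correction, an offset of 16, Aquantile or the deposited ratios, 2 with the processed signals, 0 with median centring or Cy3 alone, 4 with slide means removed and 3 without arrays with Xist. Signs turned for Foxo1 and Pcx in liver (r = -0.01 with slide means removed and -0.11 without the third slide), and with Cy3 alone for G6pc and Igfbp1 (-0.15) and Igfbp1 and Ppargc1a (-0.12) in colon. The causes were not tested.

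Igfbp1 in HH vs LH was 0.53 to 0.9 over 20 settings (unadjusted p under 0.05 in 5), and Pcx in LH vs LL -0.39 to -0.22 (in 16 of 20). Foxo1 in colon HH vs LL was 0.15 to 0.34 (in 7 of 16). The 5 or 6 mice a group limit what could be seen, with 95% intervals up to 1.46 log2 units wide for these genes between diets in liver and 1.15 in colon, and up to 2.02 and 1.62 for the main effects and the interaction.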
